A study of Mus musculus with 8 samples.

Results

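The comparison described here is the effect of osteogenic differentiation medium on vector-carrying cardiac fibroblasts of the mouse, the matrix-producing cells of the heart. Its members are the 4 libraries, of 8 in the series, that came from vector cells at day 7: 2 kept in complete medium and 2 in osteogenic medium. The other 4 libraries came from cells that overexpressed EphrinB2, a membrane ligand of Eph receptors, in the same media at the same day, and they are used only where named. All 8 were RNA-sequencing libraries from Trizol-extracted total RNA. The vector cells carried the control construct of the overexpression, so both of their groups share it. The labels give no strain, sex, age, passage, promoter of the construct, medium composition or hour of collection, and they do not say whether a group's libraries came from separate cultures. If they did not, the spread behind every p-value given here is technical, and no p-value speaks for variation between cultures.

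Cardiac fibroblasts make and turn over the collagen-rich matrix of the heart and signal to the muscle, vessel and immune cells around them. What such a cell does in a given medium is set by its transcription factors, read out through the receptors on its surface, the proteins it secretes and the enzymes that supply them. Osteogenic media in general combine an organic phosphate and ascorbate with a glucocorticoid in many recipes, and are used to drive mesenchymal cells towards mineral-forming fates. Glucocorticoids act through a nuclear receptor, encoded by Nr3c1, that binds a paired DNA element near its target genes. The labels do not state the recipe of this study.

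Expression was read as FPKM, fragments scaled by exon length and library depth, which makes levels comparable between genes of different length. Each vector library held an estimated 18608294 to 19359373 counted reads, and 11895 to 12125 genes reached 1 FPKM in a library. The libraries of a group lay close together: over the genes tested, the SD of the log2 difference between partners was 0.24 in complete and 0.21 in osteogenic medium. Every one of the 24 fibroblast markers listed reached 1 FPKM in at least 1 library. Pdgfra, the platelet-derived growth factor receptor of fibroblasts, stood at 45.95 and 49.3 FPKM in complete and 71.2 and 72.5 FPKM in osteogenic medium. Of the 23 fibroblast markers tested, 5 rose (21.7%) and 5 fell (21.7%), against 4.09% and 2.93% of all genes. Col1a1, a collagen chain, was among the fallen, at 1456 and 1422 FPKM in complete and 433 and 426 FPKM in osteogenic medium. Of 17 endothelial markers 5 reached 1 FPKM and of 17 cardiomyocyte markers 4 did, with 2 cardiomyocyte markers at 0 in every vector library. Of 31 macrophage markers 29 reached 1 FPKM and none was at 0 in every library, and 20 of the 29 tested rose in osteogenic medium. The summed level of that list was 2027 to 2304 FPKM in complete and 5292 to 5538 FPKM in osteogenic medium, most of it from Lyz2, lysozyme, at 1593 and 1392 FPKM in complete and 3359 and 3478 FPKM in osteogenic medium. Its pan-leukocyte gene Ptprc, which encodes CD45, stood at 2.07 and 1.899 FPKM in complete and 3.05 and 3.29 FPKM in osteogenic medium. Most macrophage markers thus moved with the medium, but not alike. Their log2 differences, osteogenic minus complete, ran from −0.28 to 6.27 with a median of 1.21. Cx3cr1, named after its values were seen, stood at 7.87 and 7.54 FPKM in complete and 7.68 and 7.18 FPKM in osteogenic medium. Macrophage markers are named below beside each gene group they overlap. In bulk RNA, a change in the number of cells of a type and a change in RNA per cell cannot be told apart.

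A gene is called risen or fallen where limma gave an adjusted p under 0.05 and the difference in log2(FPKM + 1) was at least 1, that is at least 2-fold on that scale. Log2 differences are osteogenic minus complete, and the value after ± is limma's moderated standard error of that difference, from 2 libraries against 2. Of 12391 genes tested, 507 rose, 4.09% of them, and 363 fell, 2.93%. Either call was made for 7.02% of genes. The p threshold alone was passed by 5362 genes, 43.3% of those tested, upwards by 19.7% and downwards by 23.6%. The middle of the distribution stayed near 0, with a median log2 difference of −0.02 and quartiles of −0.23 and 0.21. Rises reached further than falls: 113 genes rose and 31 fell by at least 4-fold. Of the risen genes, 127 were under 1 FPKM in both complete libraries, and of the fallen genes 73 were under 1 FPKM in both osteogenic libraries. In absolute terms the largest gains included Gsn, gelsolin, an actin-severing protein, at 202 and 177 FPKM in complete and 3253 and 3510.3 FPKM in osteogenic medium, and Serpina3n, a secreted protease inhibitor, at 591 and 477 FPKM in complete and 2790.1 and 2835 FPKM in osteogenic medium. The largest losses included matrix genes, for example Fn1, fibronectin, at 2308 and 2341 FPKM in complete and 604 and 555 FPKM in osteogenic medium.

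**Figure D1:**
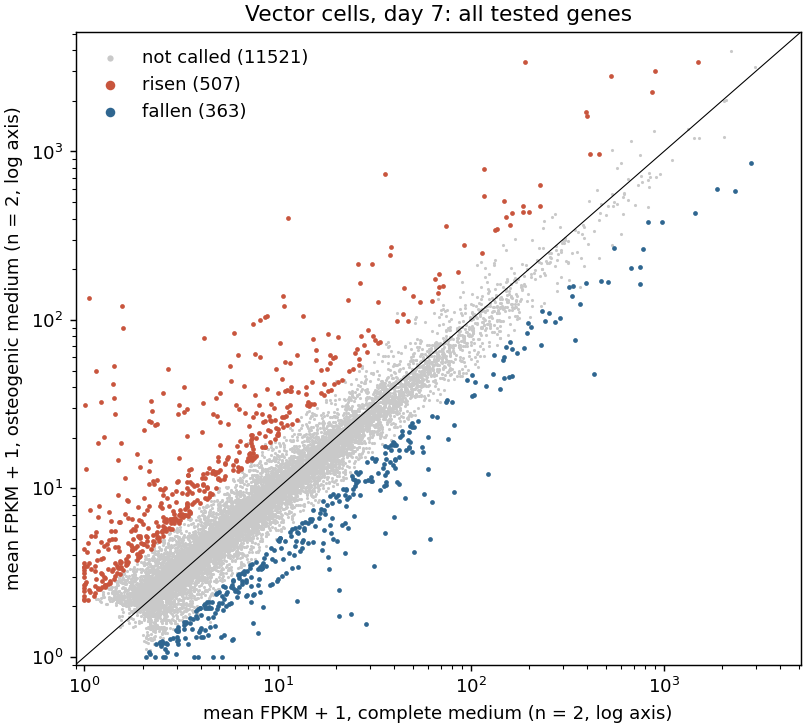
Mean FPKM plus 1 of each of the 12391 tested genes in vector cells in complete medium (horizontal, log axis, n = 2) and in osteogenic medium (vertical, log axis, n = 2), with the 507 risen genes in orange and the 363 fallen genes in blue. The called genes spread over the whole range of levels, and the risen side reaches further from the line of equality than the fallen side.

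The 4 roles differed in how often their genes were called. Of the transcription factors tested, 21 of 308 rose (6.82%) and 13 fell (4.22%), not far from the 4.09% and 2.93% of all genes. Receptors were called more often, with 45 of 271 risen (16.6%) and 30 fallen (11.1%). Secreted proteins were called most often of the 4, with 58 of 360 risen (16.1%) and 68 fallen (18.9%). Among metabolic genes 77 of 791 rose (9.73%) and 50 fell (6.32%). A further set of 378 cell machinery genes, for ribosomes, secretion, proteasome, lysosome, cell cycle, cytoskeleton and stress, had 6 risen (1.59%) and 20 fallen (5.29%).

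**Figure D2:**
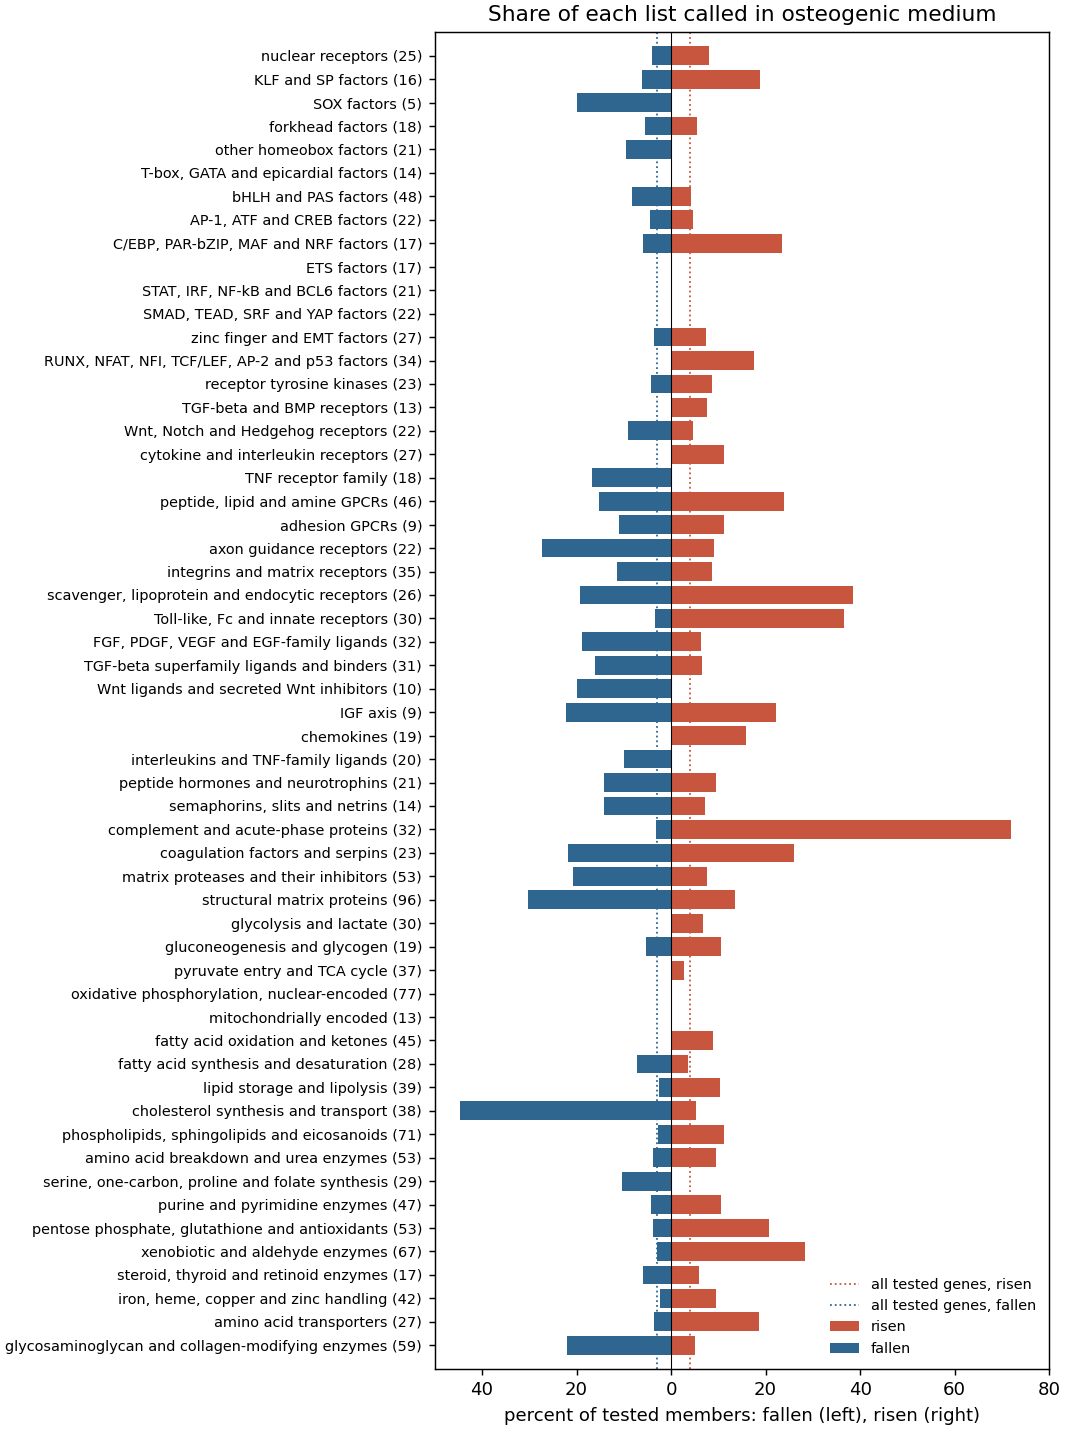
Percent of tested members that rose (orange, to the right) or fell (blue, to the left) in osteogenic medium. Each list of the 4 roles with at least 5 tested members is shown (number in brackets). Lists of cell machinery and cell type markers are not shown. Dotted lines mark the 4.09% risen and 2.93% fallen among all tested genes. Of the lists shown, complement and acute-phase proteins reach furthest to the right with 71.9% risen, and cholesterol genes furthest to the left with 44.7% fallen.

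Among transcription factors, the largest rises included genes known from other work as targets of steroid hormone receptors. What drove their rise here was not tested. Zbtb16, the zinc-finger repressor PLZF, stood at 0 and 0.0102 FPKM in complete and 29.4 and 31.1 FPKM in osteogenic medium. It went from close to 0 in complete medium, and both osteogenic libraries lay far above that, a difference of 4.96 ± 0.06 (adjusted p = 2.4e-05). Tsc22d3, the leucine-zipper protein GILZ, stood at 7.09 and 7.03 FPKM in complete and 95.97 and 102 FPKM in osteogenic medium, a difference of 3.63 ± 0.05 (adjusted p = 2.9e-05). Of 16 tested KLF and SP factors, which bind GC-rich promoters, 3 rose (18.8%) and 1 fell (6.25%), against 4.09% and 2.93% of all genes. Klf15, a regulator of amino acid and lipid use, stood at 3.899 and 3.74 FPKM in complete and 31.9 and 34.8 FPKM in osteogenic medium, and Klf9 stood at 15.6 and 18.7 FPKM in complete and 78.1 and 84.3 FPKM in osteogenic medium. Klf13 rose less, by 1.31 ± 0.05, a call that was lost with the spread of all 8 libraries, and Klf16 fell by 1.08 on the log2 scale.

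Genes of the circadian clock, the feedback loop that gives cells a daily rhythm, were called in both directions. Per1, a period gene of the repressor limb, stood at 4.21 and 3.86 FPKM in complete and 16.99 and 17.5 FPKM in osteogenic medium, a difference of 1.86 ± 0.06 (adjusted p = 1.2e-04). Its relative Per2 rose by 1.28 ± 0.07, Cry1, a cryptochrome partner of the period proteins, by 1.19 ± 0.07, and Nfil3, a repressor at D-box elements, by 1.12 ± 0.08. The falls were in Bhlhe40, a repressor at E-boxes, at 16.2 and 18.6 FPKM in complete and 2.43 and 2.25 FPKM in osteogenic medium, and in Nr1d1, the heme receptor REV-ERB-alpha, at 18.97 and 19.6 FPKM in complete and 3.61 and 4.197 FPKM in osteogenic medium. Dbp, an activator at D-box elements, stood at 9.11 and 8.67 FPKM in complete and 2.12 and 1.48 FPKM in osteogenic medium. The activators themselves were not called: Arntl, which encodes BMAL1, differed by 0.67 ± 0.07 and Clock by −0.03 ± 0.06. Cry1, Arntl and Clock were named after their values were seen, and the media were compared at 1 time only.

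Other risen factors covered several families. Hif3a, a hypoxia-inducible factor subunit, stood at 0.0557 and 0.01602 FPKM in complete and 3.17 and 3.17 FPKM in osteogenic medium, and Thrb, a thyroid hormone receptor, at 1.48 and 1.49 FPKM in complete and 7.202 and 7.19 FPKM in osteogenic medium. Osr1, an odd-skipped factor of connective tissue, rose by 1.42 ± 0.05, and Foxo3, a forkhead factor of the fasting and stress response named after its values were seen, by 1.26 ± 0.05. Fos, an immediate-early AP-1 subunit, stood at 2.54 and 2.28 FPKM in complete and 8.11 and 8.43 FPKM in osteogenic medium, while the AP-1, ATF and CREB list had 12 of 22 tested members past the p threshold downwards, against 23.6% of all genes. Cebpa, a factor of adipocytes and myeloid cells, rose by 1.04 ± 0.10, a call that was lost without complete replicate 1 (0.96) or without osteogenic replicate 2 (0.92).

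A further group of risen factors is known from macrophages as well as other cells. Maf stood at 4.01 and 3.83 FPKM in complete and 13.02 and 14.02 FPKM in osteogenic medium, Lyl1 at 2.76 and 2.18 FPKM in complete and 8.24 and 8.95 FPKM in osteogenic medium, and Nr1h3, the oxysterol receptor LXR-alpha, at 4.35 and 4.34 FPKM in complete and 12.4 and 13.3 FPKM in osteogenic medium. Spi1, the myeloid factor PU.1, an ETS factor that is in the macrophage marker list, stood at 8.99 and 7.498 FPKM in complete and 16.7 and 18.2 FPKM in osteogenic medium, a log2 difference just under the 2-fold requirement (adjusted p = 0.0019), and it was named after its values were seen. The summed level of the macrophage list is given above, and the part of macrophage RNA in these values was not tested.

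The fallen factors included effectors of Notch signalling and factors of connective tissue. Heyl and Hey1, repressors switched on by Notch receptors, fell by 1.46 and 1.17 on the log2 scale. Heyl stood at 12.7 and 12.5 FPKM in complete and 4.27 and 3.61 FPKM in osteogenic medium. Prrx2, a homeobox factor of mesenchyme, stood at 7.73 and 7.65 FPKM in complete and 2.45 and 2.48 FPKM in osteogenic medium, a difference of −1.33 ± 0.06 (adjusted p = 2.2e-04). Sox4, a SOX factor of progenitor cells, and Creb3l2, a membrane-bound factor that serves the secretory pathway, differed by −1.17 ± 0.10 and −1.07 ± 0.04, and both calls were lost with the spread of all 8 libraries. Zbtb7c, a zinc-finger repressor, fell by 1.09 on the log2 scale.

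Some lists held no called gene, where 7.02% of all genes were called, so that a list of this size would hold few at that share. Of 22 tested SMAD, TEAD, SRF and YAP genes, which carry TGF-beta and mechanical signals, 0 were called, although 11 passed the p threshold downwards and 1 upwards in limma, against 23.6% and 19.7% of all genes. Of 21 STAT, IRF and NF-kB genes 0 were called, with 8 past the p threshold upwards and 0 downwards. Neither the 17 ETS factors, Spi1 among them, nor the 14 T-box, GATA and epicardial factors held a called gene. Of 32 HOX genes only 1 was expressed enough to be tested.

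The receptor of glucocorticoids itself, Nr3c1, stood at 23.3 and 23.6 FPKM in complete and 15.3 and 15.2 FPKM in osteogenic medium, a log2 difference of −0.59 ± 0.04 that passed the p threshold (adjusted p = 8.7e-04) but not the 2-fold requirement. Hsd11b1, the enzyme that reactivates glucocorticoids, stood at 77.4 and 74.004 FPKM in complete and 50.2 and 56.5 FPKM in osteogenic medium. The cardiac fibroblast factors Tcf21 and Gata4 differed by −0.47 ± 0.04 and −0.36 ± 0.06, and the sterol factors Srebf2 and Srebf1 by −0.91 ± 0.06 and −0.47 ± 0.04. Runx2, the factor that commits cells to bone, stood at 3.11 and 2.797 FPKM in complete and 2.06 and 2.26 FPKM in osteogenic medium, a difference of −0.32 ± 0.08, and Alpl, the alkaline phosphatase of mineralising cells, at 3.598 and 3.34 FPKM in complete and 2.101 and 2.09 FPKM in osteogenic medium. Twist1, Pparg and Cebpb had log2 differences of −0.10 ± 0.08, 0.11 ± 0.10 and 0.19 ± 0.28, and none of the 3 passed the p threshold. Of the 23 osteoblast markers listed 10 were tested, and 1 rose (10%) and 4 fell (40%), against 4.09% and 2.93% of all genes. The risen one was Omd, osteomodulin, at 2.02 and 1.91 FPKM in complete and 8.45 and 8.98 FPKM in osteogenic medium, and the fallen ones were Cdh11, Postn, Col1a1 and Sparc, which fibroblasts also express. Spp1, osteopontin, named after its values were seen, stood at 165 and 138 FPKM in complete and 244 and 272 FPKM in osteogenic medium and missed the 2-fold requirement. Sp7 and Bglap were too low to be tested. The list's summed level was 4507 to 4534 FPKM in complete and 1564 to 1583 FPKM in osteogenic medium. Most of that sum came from Sparc and Col1a1 in both media.

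**Figure D3:**
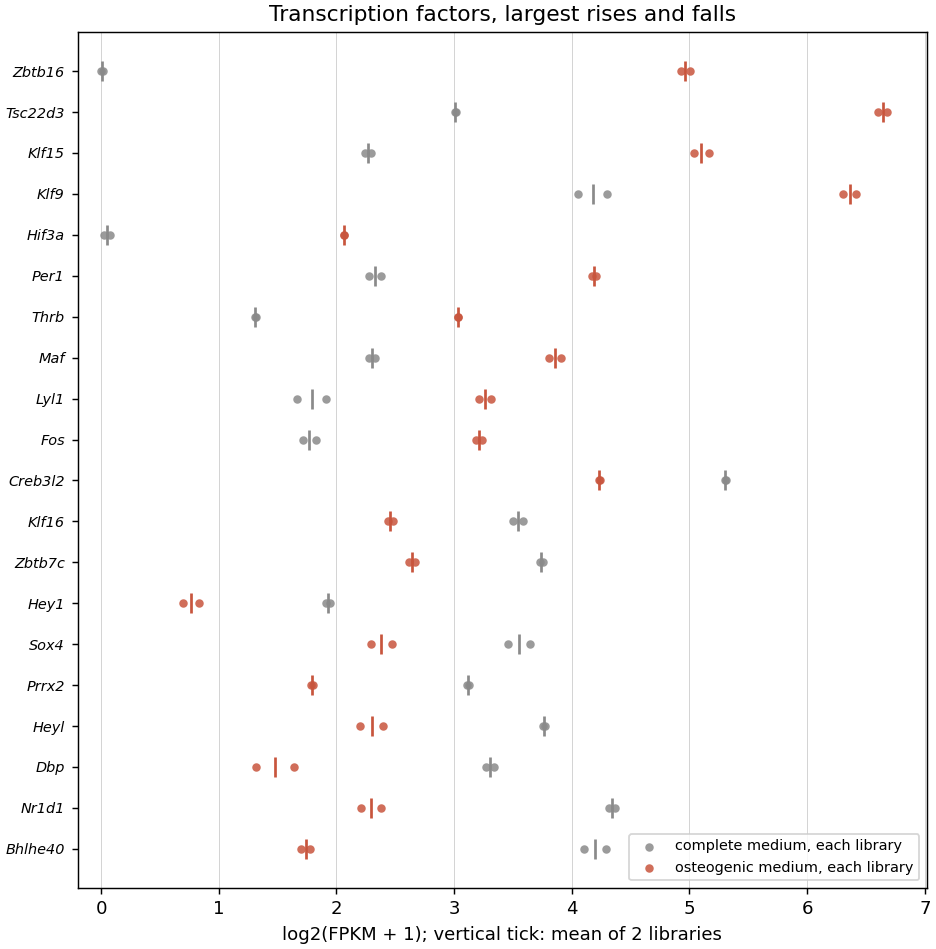
Level of the transcription factor genes with the largest calls in each direction, as log2(FPKM + 1) (horizontal), in each vector library in complete (grey) and osteogenic medium (orange), with a tick at the mean of 2 libraries. The 20 genes were chosen to have media that do not overlap, and Zbtb16 and Hif3a start near 0 in complete medium.

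Promoters were searched for the element that the glucocorticoid receptor binds, together with 3 other short motifs. A promoter here is the 250 bases before to 50 after a RefSeq gene start, on GRCm38.p6, and a search covered both strands. The element was written GNACANNNTGTNC, 13 letters that read alike on both strands. It was found in 11 of the 347 risen genes with a promoter in the table (3.17%), in 1 of 226 fallen genes (0.442%), in 36 of 8923 tested genes (0.403%) and in 145 of 27025 promoters of the table (0.537%). None of the 16 risen transcription factors with a promoter held it. Of these, 6 risen genes and the 1 fallen gene are printed because they carry these letters, here in capitals, with 20 bases on each side, read 5′ to 3′ along the gene's strand.
Sgk1, chr10:21993682-21993734, plus strand, first capital 188 bases before the start: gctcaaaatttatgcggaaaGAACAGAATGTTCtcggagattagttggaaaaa
Slc10a6, chr5:103629534-103629586, minus strand, first capital 163 bases before the start: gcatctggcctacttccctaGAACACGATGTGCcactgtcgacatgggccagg
Mt1, chr8:94178975-94179027, plus strand, first capital 94 bases before the start: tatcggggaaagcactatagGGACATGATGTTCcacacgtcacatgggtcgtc
Serpina3n, chr12:104406610-104406662, plus strand, first capital 78 bases before the start: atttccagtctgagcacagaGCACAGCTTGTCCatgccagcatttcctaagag
Map3k6, chr4:133240617-133240669, plus strand, first capital 181 bases before the start: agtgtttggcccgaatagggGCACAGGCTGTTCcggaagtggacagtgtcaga
Txnip, chr3:96557765-96557817, plus strand, first capital 172 bases before the start: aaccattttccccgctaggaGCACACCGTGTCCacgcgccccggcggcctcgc
Cpxm1, fallen, chr2:130397818-130397870, minus strand, first capital 221 bases before the start: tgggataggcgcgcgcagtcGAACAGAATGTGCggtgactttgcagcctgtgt

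The genes behind these sequences were taken from called genes only, so that choice set a difference of at least 2-fold. Of the 36 tested genes with the element, 11 rose and 1 fell, and the uncalled ones are not shown. Sgk1, a kinase that controls ion transport, stood at 6.69 and 6.62 FPKM in complete and 60.1 and 63.2 FPKM in osteogenic medium, a difference of 3.03 ± 0.05 (adjusted p = 3.6e-05). Slc10a6, a carrier of sulfated steroids, stood at 1.13 and 1.32 FPKM in complete and 31.2 and 33.3 FPKM in osteogenic medium, and Map3k6, a stress-activated kinase, at 6.56 and 6.63 FPKM in complete and 35.1 and 35.02 FPKM in osteogenic medium. For Mt1, a zinc- and copper-binding metallothionein, the values were 34.8 and 40.4 FPKM in complete and 275 and 263 FPKM in osteogenic medium. Txnip, an inhibitor of thioredoxin and of glucose uptake, rose by 1.46 ± 0.06, and the fallen Cpxm1, a carboxypeptidase-like secreted protein, stood at 111 and 95.99 FPKM in complete and 34.6 and 35.2 FPKM in osteogenic medium. Serpina3c, a neighbour and relative of Serpina3n, holds the same 13 letters in its promoter, and reads of such relatives may be shared between them. The other risen genes with the element were Amy1, Fam107a, Folh1 and Gm6093. Sgk1, Slc10a6, Map3k6, Txnip, Cpxm1 and these were named because they were called and hold the motif, not by the rule for named genes. A match is only a run of letters and shows no binding.

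Shares of the other motifs follow, and no difference between shares was tested. The E-box CACGTG was in 9.22% of risen and 9.29% of fallen promoters against 12% of tested genes. It was in 4 of 16 risen transcription factors: Klf15, with 3 copies, and Per1, Cry1 and Thrb with 1 copy each. The D-box core TTATGNAA was in 5.19% of risen and 1.77% of fallen promoters against 2.49% of tested genes. The core of a sterol element, CACCCCAC, was in 5.19% of risen and 3.98% of fallen promoters against 3.84%, and in 2 of 11 fallen cholesterol genes, Hmgcs1 and Acat2.

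Many of the receptors that rose are those with which cells take up or sense debris, lipoproteins and microbial matter. Of 26 scavenger and endocytic receptors 10 rose (38.5%) and 5 fell (19.2%), against 4.09% and 2.93% of all genes. Of 30 Toll-like, Fc and innate receptors 11 rose (36.7%) and 1 fell (3.33%). Lyve1, a hyaluronan receptor, stood at 0.128 and 0.166 FPKM in complete and 46.6 and 50.4 FPKM in osteogenic medium, and Cd163, the haemoglobin scavenger receptor, at 0.283 and 0.236 FPKM in complete and 19.6 and 18.9 FPKM in osteogenic medium. Marco, a scavenger receptor for bacteria, stood at 2.55 and 3.74 FPKM in complete and 81.4 and 72.3 FPKM in osteogenic medium. Tlr7, a sensor of single-stranded RNA, and Tlr8, its relative, differed by 2.30 ± 0.09 and 1.69 ± 0.09, the latter a call that was lost with the spread of all 8 libraries. Of the 45 risen receptors 12 are in the macrophage marker list, whose summed level rose as given above, and its part in these rises was not tested.

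Scara5, a ferritin receptor of stromal cells that the scavenger list also holds, stood at 2.01 and 2.19 FPKM in complete and 28.4 and 31.7 FPKM in osteogenic medium, a difference of 3.32 ± 0.07 (adjusted p = 6.1e-05). Other risen receptors came from other lists. Lrp4, a co-receptor of agrin and of Wnt inhibitors, stood at 1.295 and 1.26 FPKM in complete and 9.76 and 10.5 FPKM in osteogenic medium. Itga8, the integrin subunit that binds nephronectin, stood at 1.77 and 1.43 FPKM in complete and 9.22 and 8.88 FPKM in osteogenic medium, and Nrp1, a co-receptor of VEGF and semaphorins, at 13.4 and 12.8 FPKM in complete and 35.7 and 34.9 FPKM in osteogenic medium. Tgfbr3, betaglycan, a co-receptor that presents TGF-beta, rose by 1.44 ± 0.05. It was the 1 called gene of 13 TGF-beta and BMP receptors (7.69% risen, against 4.09% of all genes), and was named for that reason.

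Among the 30 fallen receptors were some for matrix contact, guidance cues and death or decoy signalling. Tnfrsf11b, osteoprotegerin, a soluble decoy for the osteoclast factor RANKL, stood at 62.98 and 61.2 FPKM in complete and 7.41 and 7.19 FPKM in osteogenic medium, a difference of −2.93 ± 0.05 (adjusted p = 3.6e-05). All 3 called genes of the 18 tested in the TNF receptor family fell (16.7%, against 2.93% of all genes). Itga11, the collagen-binding integrin subunit of fibroblasts, stood at 44.6 and 44.6 FPKM in complete and 7.55 and 7.95 FPKM in osteogenic medium, and Itgav, a subunit that binds fibronectin and latent TGF-beta, at 39.02 and 35.9 FPKM in complete and 16.4 and 15.3 FPKM in osteogenic medium. Of 22 axon guidance receptors 6 fell (27.3%) and 2 rose (9.09%), against 2.93% and 4.09% of all genes. Unc5b, a netrin receptor, stood at 190.4 and 186 FPKM in complete and 69.1 and 65.5 FPKM in osteogenic medium. Ephb3 and Ephb2, receptors of the ligand that the study overexpressed in its other cells, fell by 1.47 and 1.28 on the log2 scale. The ligand's own gene, Efnb2, stood at 6.296 and 5.56 FPKM in complete and 1.39 and 1.27 FPKM in osteogenic medium and fell by 1.57 on the log2 scale in these vector cells (adjusted p = 4.0e-04). That call was lost when the spread was taken from all 8 libraries.

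Of 22 Wnt, Notch and Hedgehog receptors 2 fell (9.09%) and 1, Lrp4, rose (4.55%), against 2.93% and 4.09% of all genes. The fallen genes were Fzd8 and Fzd5, Frizzled receptors of Wnt proteins, which fell by 1.80 and 1.20 on the log2 scale. Vldlr, a receptor for triglyceride-rich particles and 1 of the 5 fallen genes of the scavenger and lipoprotein list, stood at 5.16 and 5.33 FPKM in complete and 1.51 and 1.32 FPKM in osteogenic medium. Adgrd1, an adhesion G-protein-coupled receptor, stood at 11.8 and 11.8 FPKM in complete and 2.42 and 2.41 FPKM in osteogenic medium, and Cd200, a surface protein that restrains myeloid cells, at 7.85 and 8.84 FPKM in complete and 1.71 and 1.73 FPKM in osteogenic medium.

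Of 46 receptors for peptides, lipids and amines 11 rose (23.9%) and 7 fell (15.2%), against 4.09% and 2.93% of all genes. That list is not limited to receptors of vasoactive hormones, from which most examples here were taken. Agtr1a, the angiotensin II receptor, stood at 5.74 and 4.92 FPKM in complete and 2.17 and 1.69 FPKM in osteogenic medium, and Adra1d, an alpha-adrenergic receptor, at 7.697 and 5.43 FPKM in complete and 1.25 and 1.496 FPKM in osteogenic medium. Ednra and Ednrb, the receptors of endothelin, differed in opposite directions, by −1.02 ± 0.10 and 1.14 ± 0.12, while Edn1, which encodes endothelin itself, stood at 7.16 and 6.86 FPKM in complete and 19.9 and 20.8 FPKM in osteogenic medium. Npr3, the clearance receptor of natriuretic peptides, stood at 14.5 and 11.7 FPKM in complete and 29.6 and 31.1 FPKM in osteogenic medium. F2r, the thrombin receptor, the most abundant of the fallen receptors named here, stood at 249 and 255 FPKM in complete and 109 and 108 FPKM in osteogenic medium. Ace, the enzyme that forms angiotensin II, is in no list and was named after its values were seen, and it stood at 5.01 and 4.87 FPKM in complete and 83.7 and 82.6 FPKM in osteogenic medium. Agtr1a, Ednra, Ednrb and Npr3 were also named after their values were seen.

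**Figure D4:**
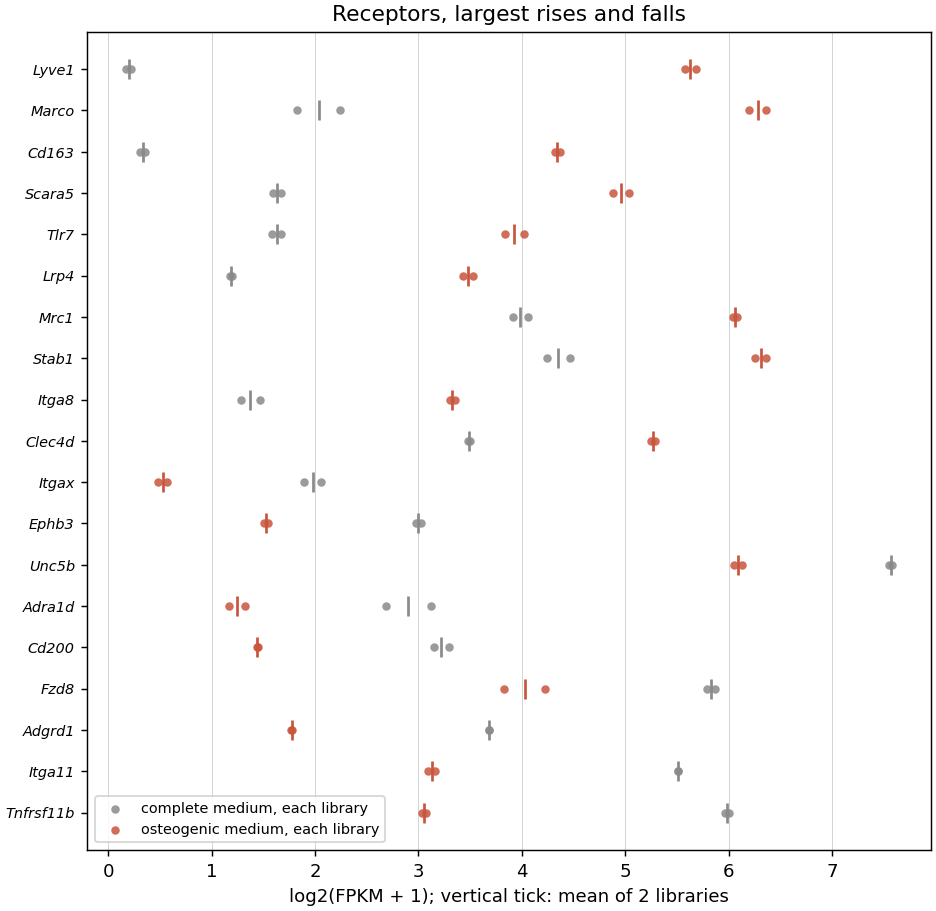
Level of the receptor genes with the largest calls in each direction, as log2(FPKM + 1) (horizontal), in each vector library in complete (grey) and osteogenic medium (orange), with a tick at the mean of 2 libraries. The 19 genes shown were chosen to have media that do not overlap, and Lyve1, Marco and Cd163 show the widest gaps to the right, Tnfrsf11b and Itga11 the widest to the left.

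Proteins of the complement cascade and the acute phase, secreted defence proteins of blood and tissue, rose as a group. Of 32 tested members 23 rose (71.9%) and 1 fell, with a median log2 difference of 1.35. Their summed level was 1754 to 1853 FPKM in complete and 5493 to 5833 FPKM in osteogenic medium. C3, the central complement protein, stood at 412 and 385 FPKM in complete and 1587 and 1648 FPKM in osteogenic medium, a difference of 2.02 ± 0.06 (adjusted p = 1.1e-04). Hp, haptoglobin, stood at 43.9 and 25.8 FPKM in complete and 713 and 744 FPKM in osteogenic medium, and C4b, a component of the classical pathway, at 24.9 and 26.3 FPKM in complete and 152 and 179 FPKM in osteogenic medium. C7, a part of the membrane attack complex, rose by 3.12 ± 0.06, and Cp, the copper oxidase ceruloplasmin, stood at 30.9 and 28.7 FPKM in complete and 210.1 and 217 FPKM in osteogenic medium. The 3 chains of C1q, which are macrophage markers here, were among the 23, and the part of macrophage RNA in the list was not tested. The fallen member was Ptx3, a pattern-recognition protein, at 88.7 and 113 FPKM in complete and 45.2 and 46.5 FPKM in osteogenic medium, a call that was lost without complete replicate 2 (−0.94) and with the spread of all 8 libraries. C4b and Cp were named after their values were seen.

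The protease inhibitors and coagulation factors split by family. All 5 called serpins of the A3 cluster rose, with Serpina3m at 0.528 and 0.281 FPKM in complete and 40.8 and 40.96 FPKM in osteogenic medium, though near-identical members of the cluster may share reads. F13a1, the clot-stabilising transglutaminase, which is also a macrophage marker, stood at 0.697 and 0.439 FPKM in complete and 118 and 121 FPKM in osteogenic medium. The 5 fallen genes of that list included Thbd, thrombomodulin, at 39.4 and 39.6 FPKM in complete and 11.05 and 13.3 FPKM in osteogenic medium, and Serpinh1, the collagen chaperone HSP47, at 978 and 986 FPKM in complete and 381 and 376 FPKM in osteogenic medium.

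Structural matrix genes went down in number and in sum. Of 96 tested 29 fell (30.2%) and 13 rose (13.5%), with a median log2 difference of −0.46. Together they held 9.71% to 9.77% of all FPKM in complete and 5.74% to 5.82% in osteogenic medium. Sparc, osteonectin, stood at 2824 and 2851 FPKM in complete and 857 and 853 FPKM in osteogenic medium. Eln, elastin, stood at 115 and 127 FPKM in complete and 10.98 and 11.3 FPKM in osteogenic medium, a difference of −3.33 ± 0.06 (adjusted p = 4.8e-05). Col15a1, a basement-membrane collagen, stood at 26.4 and 28.6 FPKM in complete and 0.692 and 0.464 FPKM in osteogenic medium, and Cthrc1, a secreted marker of activated fibroblasts, at 58.9 and 61.6 FPKM in complete and 3.73 and 4.25 FPKM in osteogenic medium. The enzymes that modify collagen and glycosaminoglycans followed, with 13 of 59 fallen (22%) and 3 risen (5.08%), against 2.93% and 4.09% of all genes. Loxl2, a collagen cross-linker, stood at 157 and 166 FPKM in complete and 47.9 and 43.5 FPKM in osteogenic medium, and Has2, hyaluronan synthase, at 3.24 and 3.501 FPKM in complete and 0.268 and 0.439 FPKM in osteogenic medium.

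The matrix genes that rose were of another kind. Prg4, lubricin, the lubricant of joints and other sliding surfaces, stood at 1.96 and 1.47 FPKM in complete and 50.1 and 50.2 FPKM in osteogenic medium. Sparcl1, a relative of Sparc, stood at 7.65 and 7.58 FPKM in complete and 103 and 102 FPKM in osteogenic medium. Dcn and Ogn, small leucine-rich proteoglycans named after their values were seen, rose by 1.46 ± 0.05 and 1.34 ± 0.07. Sparc and Sparcl1 therefore lay on opposite sides, and so did Timp3, an inhibitor of metalloproteinases that fell from 443 and 424 FPKM to 46.4 and 47.3 FPKM, and Adamts15, a versican-cleaving protease at 0.937 and 0.819 FPKM in complete and 15.9 and 14.3 FPKM in osteogenic medium.

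Among called growth factors, more fell than rose. Of 32 FGF, PDGF, VEGF and EGF-family ligands 6 fell (18.8%) and 2 rose (6.25%), against 2.93% and 4.09% of all genes. The limma p threshold alone was passed downwards by 17 and upwards by 10, against 23.6% and 19.7% of all genes. Vegfa, the main angiogenic factor, stood at 37.9 and 33.9 FPKM in complete and 11.9 and 11.2 FPKM in osteogenic medium, Fgf9 at 5.16 and 4.46 FPKM in complete and 0.289 and 0.222 FPKM in osteogenic medium, and Fgf18 at 12.2 and 12.4 FPKM in complete and 2.79 and 4.13 FPKM in osteogenic medium. Gas6, the ligand of TAM receptors that recognise dying cells, was among the most abundant mRNAs and stood at 884 and 845 FPKM in complete and 2153 and 2364 FPKM in osteogenic medium. The summed level of its list was 1620 to 1649 FPKM in complete and 2846 to 3029 FPKM in osteogenic medium. Mertk, one of its receptors and a macrophage marker, rose by 1.39 ± 0.06.

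Of 31 TGF-beta superfamily ligands and binders 5 fell (16.1%) and 2 rose (6.45%), against 2.93% and 4.09% of all genes. Gdf6, a BMP-like factor of joints and bone, stood at 359 and 335 FPKM in complete and 75.9 and 74.2 FPKM in osteogenic medium, a difference of −2.19 ± 0.05 (adjusted p = 7.2e-05), and Tgfb2 stood at 29.4 and 29.4 FPKM in complete and 10.8 and 10.5 FPKM in osteogenic medium. Fstl1, a secreted follistatin-like protein, stood at 649.6 and 698 FPKM in complete and 207 and 199 FPKM in osteogenic medium. The risen genes were Htra3, a protease that restrains TGF-beta signalling, at 9.48 and 9.98 FPKM in complete and 113 and 126 FPKM in osteogenic medium, and Chrdl1, a BMP antagonist, at 0.189 and 0.342 FPKM in complete and 3.41 and 3.75 FPKM in osteogenic medium. Both called genes of the 10 tested in the Wnt list fell (20%, against 2.93% of all genes). They were Sfrp1, a secreted inhibitor, at 478 and 459 FPKM in complete and 167 and 171 FPKM in osteogenic medium, and Wnt5a, a ligand, at 6.53 and 5.94 FPKM in complete and 2.305 and 2.48 FPKM in osteogenic medium, named because a count of 2 is small.

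In the insulin-like growth factor axis, 2 of 9 tested genes rose and 2 fell, 22.2% each way against 4.09% and 2.93% of all genes. Among them were binding proteins, which hold the hormone away from its receptor. Igfbp6 stood at 5.47 and 5.07 FPKM in complete and 55.6 and 66.6 FPKM in osteogenic medium and Igfbp5 at 80.04 and 82.1 FPKM in complete and 22.7 and 22.98 FPKM in osteogenic medium. Igf1, the hormone, named after its values were seen, stood at 21.1 and 19.6 FPKM in complete and 14.8 and 14.6 FPKM in osteogenic medium, a difference of −0.44 ± 0.05 that missed the 2-fold requirement. Of 21 peptide hormones and neurotrophins 2 rose (9.52%) and 3 fell (14.3%). Among the fallen, Scg2, secretogranin II, stood at 20.7 and 25.3 FPKM in complete and 0.781 and 0.801 FPKM in osteogenic medium, and Bdnf, the neurotrophin, at 30.5 and 29.4 FPKM in complete and 10.5 and 9.64 FPKM in osteogenic medium.

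Of 19 chemokines 3 rose (15.8%, against 4.09% of all genes) and 0 fell. Ccl6 and Ccl9, neighbouring chemokines that macrophages also make, stood at 23.5 and 20.7 FPKM in complete and 124 and 137 FPKM in osteogenic medium and at 11.002 and 10.5 FPKM in complete and 35.6 and 37.8 FPKM in osteogenic medium, and the part of macrophage RNA was not tested. Cxcl13, which attracts B cells, was listed at 0 in both complete libraries and at 1.48 and 1.44 FPKM in osteogenic medium. Ccl2, the monocyte chemokine, was named after its values were seen because its complete libraries disagreed, at 54.8 and 162 FPKM in complete and 52.3 and 50.3 FPKM in osteogenic medium. Both called genes of 20 interleukins and TNF-family ligands fell (10%, against 2.93% of all genes). They were Il6, at 7.71 and 8.61 FPKM in complete and 1.77 and 1.55 FPKM in osteogenic medium, and Lif, a cytokine of the same family, at 5.54 and 7.08 FPKM in complete and 0.962 and 1.29 FPKM in osteogenic medium.

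Among metabolic genes, enzymes that oxidise or conjugate foreign compounds and aldehydes rose most widely by number. Of 67 tested 19 rose (28.4%) and 2 fell. Fmo2, a flavin monooxygenase, stood at 10.3 and 10.4 FPKM in complete and 388 and 416 FPKM in osteogenic medium, a difference of 5.15 ± 0.05 (adjusted p = 1.9e-05). Its relative Fmo1 stood at 0.956 and 1.53 FPKM in complete and 28.6 and 26.8 FPKM in osteogenic medium, and Sult1a1, a sulfotransferase, at 0.177 and 0.713 FPKM in complete and 26.5 and 26.9 FPKM in osteogenic medium. The fallen pair were Aldh1a2 and Aldh1a3, which make retinoic acid, the former at 161 and 153 FPKM in complete and 47.7 and 41.9 FPKM in osteogenic medium. Aldh1a2 is also a marker of the epicardium. The 12 listed epicardial markers summed to 172 to 184 FPKM in complete and 62.0 to 65.1 FPKM in osteogenic medium. Aldh1a2 itself made up most of each sum. Of the 5 epicardial markers tested, 1 rose and 1, Aldh1a2, fell, and the part of such cells was not tested.

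Of 53 genes tested in the pentose phosphate, glutathione and antioxidant list 11 rose (20.8%) and 2 fell, with a median log2 difference of 0.07, and their summed level went from 3149 to 3169 FPKM up to 5844 to 6159 FPKM. Gpx3, the secreted glutathione peroxidase, made up much of that sum, at 912 and 892 FPKM in complete and 2867 and 3135 FPKM in osteogenic medium. Selenop, the selenium carrier, stood at 72.3 and 75.1 FPKM in complete and 345 and 372 FPKM in osteogenic medium, and Mt2, a metallothionein, at 3.18 and 2.92 FPKM in complete and 24.8 and 16.5 FPKM in osteogenic medium. Chac1, which breaks down glutathione under stress, was 1 of the 2 fallen genes of that list and fell by 1.40 on the log2 scale. Of 42 genes of metal handling 4 rose (9.52%) and 1 fell (2.38%), against 4.09% and 2.93% of all genes. Steap4, a reductase of iron and copper, stood at 0.913 and 1.14 FPKM in complete and 20.8 and 21.4 FPKM in osteogenic medium. The fallen gene was Loxl1, with a log2 difference of −1.02. Its call was lost with median-ratio scaling, without complete replicate 1 and without osteogenic replicate 1.

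In fuel use, few genes of each pathway were called. Pdk4, the kinase that closes pyruvate entry to the mitochondrion, stood at 8.34 and 7.32 FPKM in complete and 100.2 and 109.8 FPKM in osteogenic medium, a difference of 3.59 ± 0.08 (adjusted p = 6.1e-05). It was the 1 called gene of 37 in pyruvate entry and the TCA cycle (2.7% risen, against 4.09% of all genes). None of the 77 nuclear-encoded genes of oxidative phosphorylation was called, although 25 passed the limma p threshold downwards and 2 upwards, against 23.6% and 19.7% of all genes, with a median of −0.11. None of the 13 mitochondrially encoded genes was called either, with 1 past the p threshold each way. Of 30 glycolysis genes 2 rose (6.67%, against 4.09% of all genes) and 0 fell. Ldhb, the lactate dehydrogenase subunit of oxidative tissue, stood at 5.403 and 4.96 FPKM in complete and 16.8 and 16.8 FPKM in osteogenic medium. Hk3, a hexokinase of myeloid cells, stood at 3.55 and 3.299 FPKM in complete and 7.72 and 8.05 FPKM in osteogenic medium. Both were named because the count is small.

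Of 45 fatty acid oxidation and ketone genes 4 rose (8.89%, against 4.09% of all genes) and 0 fell, among them Acaa2, the last thiolase of the cycle, at 10.99 and 10.6 FPKM in complete and 40.2 and 37.5 FPKM in osteogenic medium. Cpt1a, which admits fatty acids to the mitochondrion and was named after its values were seen, stood at 27.5 and 28.3 FPKM in complete and 27.5 and 27.7 FPKM in osteogenic medium. Of 39 genes of lipid storage and lipolysis 4 rose (10.3%) and 1 fell. Fabp4, a fatty acid carrier of fat cells and macrophages, stood at 1.34 and 0.958 FPKM in complete and 24.6 and 23.97 FPKM in osteogenic medium, Pnpla2, the first lipase of stored fat, at 10.6 and 9.56 FPKM in complete and 24.3 and 27.3 FPKM in osteogenic medium, and Apoe, the lipoprotein, at 409 and 382 FPKM in complete and 1659 and 1768 FPKM in osteogenic medium. The call of Apoe was lost with the spread of all 8 libraries. The fallen desaturases Scd2 and Fads2 stood at 149.7 and 144 FPKM in complete and 45.2 and 43.6 FPKM in osteogenic medium and at 118 and 121 FPKM in complete and 41.4 and 37.9 FPKM in osteogenic medium.

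Genes of cholesterol synthesis and transport were mostly on the fallen side. Of 38 tested 17 fell (44.7%) and 2 rose, with a median log2 difference of −0.88. Hmgcs1, the first committed step, stood at 40.99 and 39.8 FPKM in complete and 10.6 and 9.12 FPKM in osteogenic medium, and Cyp51, a lanosterol demethylase, at 35.6 and 35.2 FPKM in complete and 10.2 and 8.68 FPKM in osteogenic medium. The 2 risen members were on the disposal side: Cyp27a1, which hydroxylates cholesterol, stood at 7.07 and 7.22 FPKM in complete and 54.2 and 64.9 FPKM in osteogenic medium, and Cyp7b1, which acts on the product, rose by 1.14 ± 0.10, a call that was lost without complete replicate 1 (just under the 2-fold requirement). Srebf2, given above, lay in the same direction as the synthesis genes.

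Of 71 genes of phospholipids, sphingolipids and eicosanoids 8 rose (11.3%) and 2 fell. Cbr2, a carbonyl reductase that is also in the macrophage marker list, stood at 0.402 and 0.445 FPKM in complete and 51.9 and 52.8 FPKM in osteogenic medium. Ltc4s, leukotriene C4 synthase, stood at 0.421 and 0.318 FPKM in complete and 4.59 and 6.27 FPKM in osteogenic medium, Alox5, 5-lipoxygenase, at 2.52 and 2.42 FPKM in complete and 12.2 and 11.6 FPKM in osteogenic medium, and Alox5ap, its activating protein, at 8.42 and 8.14 FPKM in complete and 31.9 and 29.6 FPKM in osteogenic medium. Alox5 and Alox5ap were named after their values were seen, and these enzymes are known from myeloid cells, whose part was not tested. The cyclooxygenases Ptgs1 and Ptgs2, of the prostaglandin branch, also named after their values were seen, had log2 differences of 0.10 ± 0.09 and 0.37 ± 0.16 and did not pass the p threshold.

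In amino acid metabolism, carriers and glutamine synthetase were called. Slc38a5, a carrier of glutamine and serine, stood at 0.119 and 0.312 FPKM in complete and 28.9 and 34.1 FPKM in osteogenic medium, while Slc7a5, the large neutral amino acid exchanger, stood at 29.8 and 34.4 FPKM in complete and 12.9 and 9.99 FPKM in osteogenic medium. Glul, glutamine synthetase, stood at 36.9 and 37.1 FPKM in complete and 235 and 251 FPKM in osteogenic medium, a difference of 2.68 ± 0.05 (adjusted p = 4.8e-05). The 3 called genes of 29 in serine, proline and folate synthesis all fell (10.3%, against 2.93% of all genes). Pycr1, of proline synthesis, fell by 1.26, Mthfd2, of mitochondrial folate, by 1.21, and Phgdh, of serine synthesis, by 1.10 on the log2 scale. The call of Phgdh was lost without osteogenic replicate 2, where the difference was −0.93, and without complete replicate 1, where it was −1.06 and missed the p threshold. Ddah1, which clears an inhibitor of nitric oxide synthesis, stood at 36.5 and 32.5 FPKM in complete and 10.03 and 8.71 FPKM in osteogenic medium.

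Of 47 purine and pyrimidine enzymes 5 rose (10.6%) and 2 fell (4.26%), against 4.09% and 2.93% of all genes. Of 17 steroid, thyroid and retinoid enzymes 1 rose and 1, Dio3, fell, 5.88% each way. Xdh, xanthine dehydrogenase, which makes uric acid, stood at 16.7 and 18.5 FPKM in complete and 58.2 and 63.7 FPKM in osteogenic medium, and Pnp, purine nucleoside phosphorylase, at 9.42 and 11.7 FPKM in complete and 34.8 and 39.2 FPKM in osteogenic medium. Ada, adenosine deaminase, stood at 42.4 and 36.9 FPKM in complete and 14.04 and 13.7 FPKM in osteogenic medium. Dio3, the enzyme that inactivates thyroid hormone, stood at 21.5 and 18.2 FPKM in complete and 0.585 and 0.916 FPKM in osteogenic medium, a difference of −3.57 ± 0.13 (adjusted p = 1.5e-04), opposite in direction to the receptor gene Thrb given above.

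**Figure D5:**
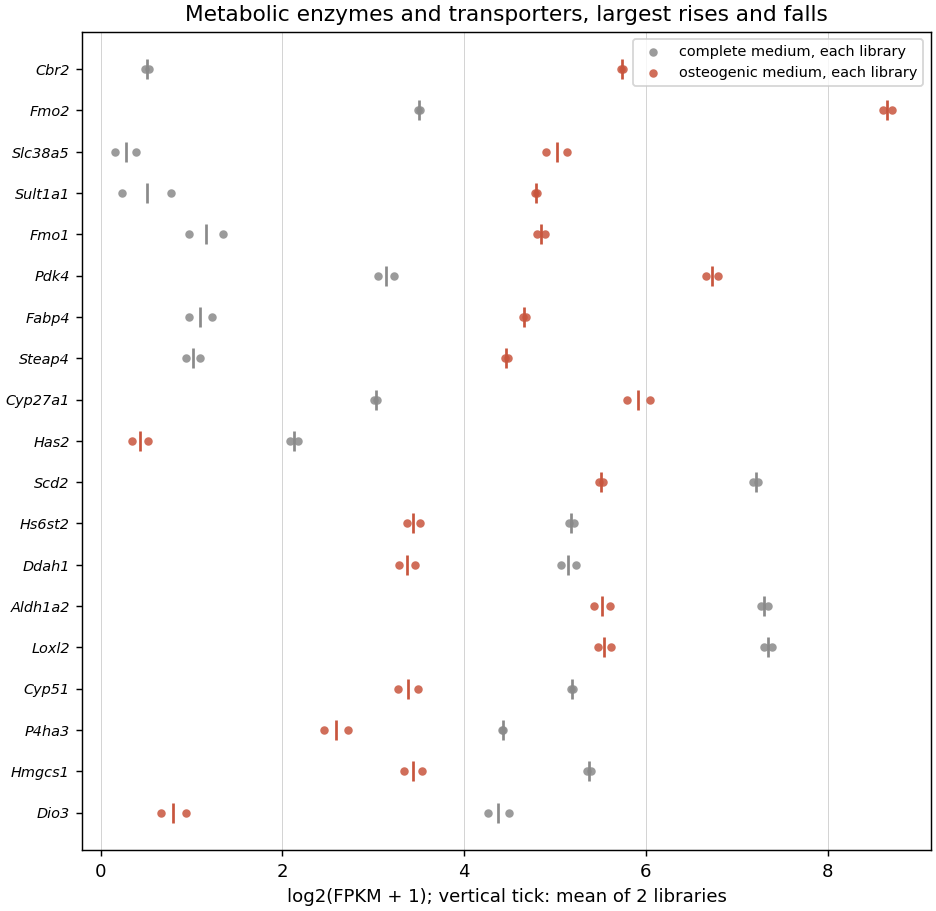
Level of the metabolic genes with the largest calls in each direction, as log2(FPKM + 1) (horizontal), in each vector library in complete (grey) and osteogenic medium (orange), with a tick at the mean of 2 libraries. The 19 genes shown were chosen to have media that do not overlap, and Cbr2, Fmo2, Slc38a5 and Sult1a1 rose by more than 4 units while Dio3 fell by more than 3.

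Of the 378 cell machinery genes, 1.59% rose and 5.29% fell, against 4.09% and 2.93% of all genes. None of the 75 ribosomal protein genes and none of the 38 proteasome genes was called, although 34 ribosomal genes passed the limma p threshold downwards and 1 upwards, against 23.6% and 19.7% of all genes. Of 61 cell cycle genes 9 fell and 1 rose, and the risen one was Cdkn1c, the cyclin-dependent kinase inhibitor p57, at 0.209 and 0.633 FPKM in complete and 32.9 and 34.4 FPKM in osteogenic medium. Cdc20, an activator of anaphase, stood at 12.5 and 9.75 FPKM in complete and 3.35 and 2.74 FPKM in osteogenic medium. Of 55 actin and contractile genes 7 fell, and gelsolin was the 1 that rose. Acta2, the smooth muscle actin of myofibroblasts, named after its values were seen, stood at 890.2 and 760.4 FPKM in complete and 516 and 413 FPKM in osteogenic medium, which missed the 2-fold requirement. Hspb7, a small heat shock protein of heart and muscle, stood at 10.2 and 9.28 FPKM in complete and 144 and 131 FPKM in osteogenic medium, while Tnnt2, the cardiac troponin T gene, named because it was the 1 cardiomyocyte marker called, stood at 0.771 and 0.478 FPKM in complete and 5.46 and 6.61 FPKM in osteogenic medium.

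The same genes were read in the EphrinB2 cells, whose libraries had no part in the calls. There, partners lay further apart than in vector cells, with an SD of the log2 difference of 0.51 in complete and 0.65 in osteogenic medium. Of the 870 called genes, 852 differed in the same direction and 667 did so by at least 2-fold. Without complete replicate 2 and osteogenic replicate 1, the counts were 846 and 722. Those 2 libraries were picked after the data were seen. An SD between partners does not tell which partner stood apart, so these counts are descriptive only. The median log2 difference of the risen genes was 1.41 in vector and 1.44 in EphrinB2 cells, and that of the fallen genes −1.29 and −1.44. Side by side, Zbtb16 differed by 4.96 and 3.74, Klf15 by 2.83 and 3.14, Tnfrsf11b by −2.93 and −2.95, C3 by 2.02 and 1.97, and Fmo2 by 5.15 and 4.90. No gene of 12994 tested passed limma's interaction test at an adjusted p of 0.05, the smallest being 0.347, and 214 had an unadjusted p under 0.05. A result that misses the threshold does not show that the medium acted alike in both kinds of cell.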

How the data were processed

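FPKM values as deposited by the authors were used, for 54532 Ensembl genes and 8 libraries, with 0 columns of other samples. The submitters' processing notes name the build mm10 and, as tools, HISAT2 2.0.5, DESeq2 1.16.1, CASAVA and featureCounts 1.5.0-p3. How strand was treated, which annotation release was counted and what was filtered were not given in the sources used here. Names and places came from GENCODE M21 on GRCm38, which matched 54495 identifiers and left 37 unmatched. Reads of relatives or overlapping genes may be shared.

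Because the unit is FPKM, count models were not applied. Counted reads per library were estimated from the steps between low FPKM values. With a tolerance of 0.02 reads, 98.2% to 98.3% of values under 50 reads in the vector libraries were whole reads. Genes with at least 1 FPKM in at least 2 of the 4 vector libraries were tested as log2(FPKM + 1), a scale that understates the change of low genes. The test was limma 3.58.1 (R 4.3.3), two-sided, with a mean-variance trend, 2 residual and 2.75 prior degrees of freedom and Benjamini-Hochberg adjustment over all 12391 genes. Calls needed an adjusted p under 0.05 and a 2-fold difference. The interaction with EphrinB2 was fitted on all 8 libraries. The steps were tested on simulated data.

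The comparison, the 74 lists and the rules were chosen with earlier results of these data known, and lists are described by counts with no list test. The rule for named genes takes, for each role, the 10 largest rises and 10 largest falls among called genes whose media do not overlap, with at least 2 FPKM on average in the higher medium. It adds up to 3 called genes each way from each list with at least 3 called members, the 8 largest gains and 8 largest losses in mean FPKM, and a fixed set of regulators. Genes outside the rule are marked where named, and some genes taken by it are not reported here. Promoter sequences are RefSeq's, on GRCm38.p6. Alternatives were pseudocounts of 0.1 and 0.5, other filters, scalings and spreads, a test against a 1.5-fold change and leaving out each library.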

Additional observations from a re-analysis of the deposited data

How the results depend on the processing

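The counts of called genes in each direction, over all genes and in each of the 4 roles, stayed within 1.5 times their value under every alternative run, and no named gene reversed. The called total of 870 was 1290 with a pseudocount of 0.1, 622 with a filter of 5 FPKM, 692 with the spread of all 8 libraries and 828 to 902 without 1 vector library, and 858, 621, 692 and 774 to 820 of the 870 were kept. The number of genes past the p threshold alone depended on the spread. It was 5362, but 1041 with the spread of all 8 libraries and 2964 to 3332 without 1 vector library, where fewer samples enter the fit. The called total was 1220 with TPM scaling, where a pseudocount of 1 weighs less. With the spread of all 8 libraries 20 named genes were no longer called: Apoe, Ccnd2, Cda, Creb3l2, Ctss, Ddah2, Efnb2, Gpx7, Klf13, Lyz2, Myh10, Pappa, Pgm2l1, Plxna2, Ptx3, Sema3d, Sox4, Tlr8, Tnfrsf12a and Ube2c. Median-ratio scaling lost 3 (Loxl1, Pappa and Ddah2), and the test against a 1.5-fold change lost 5 (Ptx3, Phgdh, Tnfrsf12a, Cebpa and Hs3st3b1) and gained Srebf2.

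Without complete replicate 1, calls were lost for Cebpa (0.96), Cyp7b1 (just under 1), Ddah2 (−0.95), Loxl1 (−0.97), Pappa (−0.95), Pgm2l1 (just under 1), Phgdh (−1.06) and Tnfrsf12a (−0.99). Without complete replicate 2 they were lost for Hs3st3b1 (0.97), Igfbp4 (0.98), Ptx3 (−0.94) and Tnfrsf12a (−1.12), without osteogenic replicate 1 for Loxl1 (just under 1 in size), and without osteogenic replicate 2 for Cebpa (0.92), Ddah2 (−0.94), Igfbp4 (0.97), Pappa (−0.99), Phgdh (−0.93) and Tnfrsf12a (−0.86). The interaction count was 0 with all 8 libraries and 0 without any 1 EphrinB2 library. Leaving out EphrinB2 complete replicate 2 and osteogenic replicate 1 together was chosen after seeing the data. No paired analysis was possible because no label gives replicate numbers shared between groups. With 2 libraries a group, a lone library is assumed to vary like the other group.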

Other observations

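Of the 870 called genes, 475 are in none of the lists, and the genes below were picked from them after their values were seen. Aqp1, a water channel, stood at 1.52 and 0.9001 FPKM in complete and 24.9 and 22.5 FPKM in osteogenic medium. Slc8a1, the sodium-calcium exchanger, and Piezo2, a mechanically gated channel, fell by 1.99 and 2.09 on the log2 scale. Tubb3, a neuronal tubulin, stood at 59.9 and 52.9 FPKM in complete and 8.63 and 7.96 FPKM in osteogenic medium, and Ncam1, the neural cell adhesion molecule, at 11.6 and 11.6 FPKM in complete and 1.35 and 0.948 FPKM in osteogenic medium. Neighbouring members of 1 membrane-protein family of myeloid cells rose, with Ms4a6b at 1.39 and 1.38 FPKM in complete and 22.7 and 23.4 FPKM in osteogenic medium and Ms4a6c at 2.08 and 2.04 FPKM in complete and 25.9 and 27.1 FPKM in osteogenic medium. Ifi205, an interferon-inducible gene, rose by 3.69 ± 0.22 on the log2 scale. Such relatives may share reads, and macrophage markers rose beside them, whose part was not tested.

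Around Dio3 on chromosome 12, an imprinted region in which 1 parental copy is active, several neighbours lay in the same direction. Meg3 and Rian, long non-coding RNAs of the region, stood at 14.3 and 13.4 FPKM in complete and 5.83 and 4.99 FPKM in osteogenic medium and at 6.11 and 5.76 FPKM in complete and 2.58 and 1.92 FPKM in osteogenic medium. Dio3os, the transcript antisense to Dio3, stood at 10.4 and 8.59 FPKM in complete and 2.33 and 1.69 FPKM in osteogenic medium. Its reads cannot be told from those of Dio3, since the strand setting of the counting is not given. Cdkn1c and Peg3, imprinted genes on chromosome 7, lay in the opposite direction, at log2 differences of 4.62 ± 0.15 and 1.02 ± 0.07. No test of imprinted genes as a group was made.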
